A study of Mus musculus with 32 samples.

Results

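The nuclear genes for respiratory complexes II to V were followed through RNA sequencing of 2 classes of layer 5b pyramidal neuron in mouse cortex. The genes were taken by name: Sdha to Sdhd, Cyc1, Cycs, and all symbols starting with Uqcr, with Cox4 to Cox8 or with Atp5, pseudogene names left out, that had a count in at least 16 of 32 libraries. This gave 48 of the 24091 genes with a symbol in the count tables, of 49 that matched by name. The gene left out, Cox8c, a testis form, had counts in 2 libraries and at most 3 counts. The 48 comprise 4 genes of complex II, 10 of complex III and its electron carrier, 17 of complex IV and 17 of complex V. By role, 38 are subunits found in most tissues, 1 is the carrier cytochrome c, 6 are isoforms known mainly from muscle, lung or testis, and 1, Cox7a2l, is a supercomplex assembly factor. Atp5s and Atp5sl carry the Atp5 name without being subunits of the enzyme. A count was present in every library for 44 genes, and the exceptions were the tissue isoforms Cox8b, Cox4i2, Cox6b2 and Cox7b2.

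The samples came from translating ribosome affinity purification (TRAP), in which a ribosomal protein fused to EGFP (EGFP-L10a) is expressed from a bacterial artificial chromosome (bacTRAP) in chosen cells and its ribosomes are captured with antibodies to EGFP. The captured RNA is the IP, and RNA of the homogenate before capture is the input. Gprin3-bacTRAP mice (line ES152) express the transgene in pyramidal cells of lower layer 5b, and Colgalt2-bacTRAP mice (line DU9) in those of upper layer 5b. All mice were adult, aged 8 to 17 weeks. Wildtype mice of each line gave a baseline set from primary motor cortex (M1): Gprin3 IP (n = 2), Gprin3 input (n = 3), Colgalt2 IP (n = 2) and Colgalt2 input (n = 2). A disease set came from the same lines crossed to SOD1*G93A mice, a transgenic model of amyotrophic lateral sclerosis that carries a mutant human SOD1. Its groups were SOD1*G93A Gprin3 IP (n = 3), wildtype (WT) littermate Gprin3 IP (n = 2), SOD1*G93A Colgalt2 IP (n = 4), WT Colgalt2 IP (n = 3), SOD1*G93A M1 input (n = 6) and WT M1 input (n = 5). The inputs of the disease set were from the Gprin3 cross, and they are whole tissue by their RNA label although their cell type label names lower layer 5b pyramidal cells. The Colgalt2 IPs of the disease set were taken from whole cortex according to the protocol, while their source names say M1. The labels do not say that replicates are separate animals, so p-values measure the spread between these libraries, which may be technical.

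The respiratory chain passes electrons from nutrients to oxygen in the inner mitochondrial membrane and stores the energy as a proton gradient. Complex II (succinate dehydrogenase) feeds electrons from the citric acid cycle to ubiquinone, complex III (the cytochrome bc1 complex) passes them to cytochrome c, complex IV (cytochrome c oxidase, COX) reduces oxygen, and complex V (ATP synthase) uses the gradient to make ATP. Large projection neurons of motor cortex have long axons and a high demand for ATP, and several COX subunits exist as isoforms that differ between tissues. Nuclear respiratory factor 1 (NRF1), the ETS family factor GABPA (also called NRF2) and YY1 are known regulators of nuclear respiratory genes.

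Promoter windows of 300 bases, 250 before and 50 after the transcription start, were present for 38 of the 48 genes in a RefSeq table for GRCm38.p6. The letters of a core NRF1 site (GCGCA, any base, GCGC) were found on either strand in 10 of them (26.3%), against 1402 of 27025 genes in the table (5.19%). The ETS letters CCGGAAG were found in 12 (31.6%), against 2683 genes (9.93%). The YY1 letters AAGATGGCG were found in 3 (7.89%), against 443 genes (1.64%). At least 1 of these motifs was in 20 of the 38 (52.6%), against 4084 of all genes (15.1%). A match describes the letters and not the binding of a factor. The sequences below show the 250 bases before the start for 1 gene of each complex whose RNA was higher in Gprin3 IP than in input in both sets of mice, so that a reader can see where the motif letters lie. They were taken as the gene of each complex with the most motif kinds and then matches in these 250 bases, with ties (Uqcr11 with Uqcrh) settled by the smaller p in the baseline comparison. Cox7a1, an isoform gene on which a result below turns, is added. Capitals mark motif matches, on either strand, and each sequence runs 5′ to 3′ on the strand of its gene.
Sdha: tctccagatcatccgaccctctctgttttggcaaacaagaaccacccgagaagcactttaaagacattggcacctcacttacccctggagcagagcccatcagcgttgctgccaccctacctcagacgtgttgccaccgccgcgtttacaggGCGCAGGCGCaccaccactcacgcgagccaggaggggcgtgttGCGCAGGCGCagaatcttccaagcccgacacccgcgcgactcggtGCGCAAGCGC
Uqcrh: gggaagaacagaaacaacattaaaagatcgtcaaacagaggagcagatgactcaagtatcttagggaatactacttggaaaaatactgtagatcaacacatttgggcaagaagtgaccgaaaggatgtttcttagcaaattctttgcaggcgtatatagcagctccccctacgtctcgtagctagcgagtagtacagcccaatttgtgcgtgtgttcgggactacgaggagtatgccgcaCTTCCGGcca
Cox6b1: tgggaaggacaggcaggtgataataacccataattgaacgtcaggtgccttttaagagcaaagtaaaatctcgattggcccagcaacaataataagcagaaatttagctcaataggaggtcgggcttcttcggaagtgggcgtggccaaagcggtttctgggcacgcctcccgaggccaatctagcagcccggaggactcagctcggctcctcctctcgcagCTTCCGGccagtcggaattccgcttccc
Atp5h: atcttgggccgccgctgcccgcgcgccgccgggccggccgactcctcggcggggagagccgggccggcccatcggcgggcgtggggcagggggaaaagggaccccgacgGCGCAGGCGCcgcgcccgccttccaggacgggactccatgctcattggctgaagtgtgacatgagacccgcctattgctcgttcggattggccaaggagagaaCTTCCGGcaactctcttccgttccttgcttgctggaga
Cox7a1: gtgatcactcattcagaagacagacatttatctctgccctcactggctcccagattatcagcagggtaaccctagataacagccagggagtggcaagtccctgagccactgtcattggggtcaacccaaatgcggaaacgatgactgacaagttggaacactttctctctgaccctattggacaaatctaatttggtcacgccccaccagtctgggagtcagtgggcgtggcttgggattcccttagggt
Sdha, the flavoprotein of complex II, has its window at chr13:74350241-74350490 (minus strand, GRCm38.p6), with 3 NRF1 matches. Uqcrh, the hinge protein of complex III, has its window at chr4:116075071-116075320 (minus strand), with 1 ETS match close to the start. The window of Cox6b1, a peripheral subunit of complex IV, is at chr7:30626115-30626364 (minus strand) and holds 1 ETS match. The window of Atp5h, subunit d of the peripheral stalk of complex V, is at chr11:115419920-115420169 (minus strand) and holds 1 NRF1 and 1 ETS match. The window of Cox7a1, at chr7:30183921-30184170 (plus strand), shows none of the 3 letter strings.

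Libraries held between 10863628 and 77220890 counts, and replicate libraries differed by more than counting noise in every group. The chi-square per degree of freedom was 133.9 between baseline Colgalt2 IPs and 42.8 between baseline Gprin3 IPs. It was 88.0 to 184.7 between WT Colgalt2 IPs and 21.6 between WT Gprin3 IPs. Between SOD1*G93A libraries it was 36.3 to 105.5 in Colgalt2 IPs and 28.3 to 49.6 in Gprin3 IPs. This measure also rises with depth. Sod1 counts averaged 718 ± 23.6 counts scaled to the library total (CPM) in SOD1*G93A Gprin3 IPs (SD, n = 3), against 321 ± 2.14 in WT Gprin3 IPs (n = 2). The other genotype pairs ran the same way, at 412 ± 37.1 CPM in SOD1*G93A Colgalt2 IPs (SD, n = 4) against 262 ± 60.3 in WT Colgalt2 IPs (n = 3), and at 400 ± 34.0 in SOD1*G93A M1 inputs (n = 6) against 342 ± 32.3 in WT M1 inputs (n = 5). The tables list the mouse gene, and how far human transgene reads were counted there is not given in the sources used here. Baseline Gprin3 IPs, with no SOD1 transgene, had 470 and 801 CPM of Sod1, so its level did not separate genotypes across sets. Of 14 markers of layer 5b projection neurons, 12 were higher and 1 lower in baseline Gprin3 IP than in input, and 6 were higher and none lower in baseline Colgalt2 IP than in input. No mitochondrially encoded gene is listed in the tables, so the comparison covers the nuclear part of each complex.

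The 48 genes together took the largest shares of counts in baseline and SOD1*G93A Gprin3 IPs and the smallest in Colgalt2 IPs of WT mice of the disease set. They took 1.48% and 1.98% of counts in the baseline Gprin3 IPs, against 0.996%, 1.13% and 1.29% in Gprin3 inputs. In baseline Colgalt2 IPs the shares were 1.005% and 1.078%, against 1.135% and 1.277% in Colgalt2 inputs. In the disease set the shares were 1.67%, 1.79% and 1.91% in SOD1*G93A Gprin3 IPs, against 1.19% and 1.28% in WT Gprin3 IPs. Groups did not overlap within any of these 3 pairs, but the order of the Colgalt2 pair turned with TMM factors (mean summed CPM of 11200 in Colgalt2 IP and 10900 in Colgalt2 input). The shares were 0.875% to 1.02% in the 4 SOD1*G93A Colgalt2 IPs, against 0.755% to 0.779% in the 3 WT Colgalt2 IPs, again without overlap. In inputs the genotypes overlapped, with a lowest, median and highest share of 1.02%, 1.07% and 1.09% in SOD1*G93A M1 inputs, against 0.977%, 1.03% and 1.17% in WT M1 inputs.

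**Figure D1:**
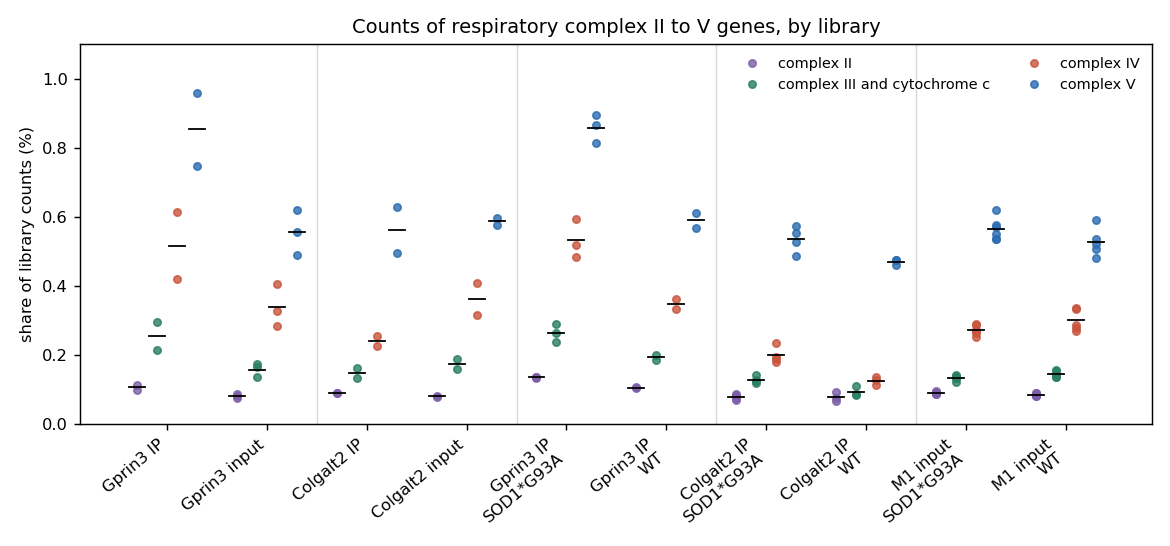
Percent of each library's counts in genes of complexes II, III, IV and V (vertical axis) for the 10 groups (horizontal axis), with 1 point per library and a bar for each group mean. Complex V has the largest share in every group, and the complex IV share averages 0.532% in SOD1*G93A Gprin3 IPs and 0.126% in WT Colgalt2 IPs.

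Levels of different genes were compared per kilobase of transcript (CPM per kb). In baseline Gprin3 IPs the highest mean levels were those of Cox6a1 (1570 ± 502 CPM per kb), Atp5b (1430 ± 117), Cox4i1 (1330 ± 330) and Cox5a (1120 ± 385; SD, n = 2 each). Cox6a1, Cox4i1 and Cox5a are COX subunits and Atp5b is the catalytic beta subunit of ATP synthase. The spread between the 2 libraries is larger than the steps between these 4 genes, so their order is not resolved. In WT M1 inputs Atp5b came first, at 997 ± 114 CPM per kb, ahead of Cox4i1 at 758 ± 116 and Cox6a1 at 747 ± 113 (SD, n = 5 each). At the bottom in Gprin3 IPs were the tissue isoforms Cox6b2, Cox4i2, Cox8b and Cox6a2, at 0.127 to 1.03 CPM per kb. Cox8b, the muscle and brown fat form of subunit 8, was at 0 in every Colgalt2 IP and in both WT Gprin3 IPs of the disease set, and it was too low to enter any test.

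Subunit c of the ATP synthase ring is encoded by Atp5g1, Atp5g2 and Atp5g3, which give the same mature protein. Atp5g3 was the main source in every group, with a mean of 66.3% to 82.3% of their summed CPM per kb. Atp5g1 contributed 13.7% to 28.3% and Atp5g2 2.32% to 5.66%, as group means. The Atp5g1 share was at the top of its range in SOD1*G93A and WT Colgalt2 IPs of the disease set (28.3% ± 3.13, n = 4, and 28.1% ± 6.74, n = 3). It was lowest in SOD1*G93A M1 inputs (13.7% ± 1.55, n = 6), against 17.0% ± 1.15 in WT M1 inputs (SD, n = 5). These genes have processed copies elsewhere in the genome, and how reads shared with such copies were counted is not given in the sources used here.

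Nearly all ubiquitous subunits of the 4 complexes were higher in ribosome-bound RNA of Gprin3 neurons than in the tissue they came from. In baseline mice, 40 of the 47 genes tested were higher in Gprin3 IP than in Gprin3 input and 2 were lower, with a median log2 fold change of 0.80. Over all 14527 genes tested, 29.2% were called, 13.9% higher and 15.3% lower, and the median was -0.03. These calls, and all that follow, rest on an adjusted p under 0.05 by Benjamini and Hochberg's method over all genes tested, from the quasi-likelihood test of edgeR. By complex, 4 of 4 genes of complex II were higher (median 0.75), 10 of 10 of complex III with its carrier (0.86), 11 of 16 of complex IV (0.73) and 15 of 17 of complex V (0.92). Both genes that were lower, Cox6a2 and Cox6b2, are tissue isoforms of complex IV. In bulk samples, a change in the share of a cell type and a change in RNA per cell cannot be told apart.

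Among core subunits, Uqcrc1, which forms the matrix side of complex III, had 213 and 179 CPM in Gprin3 IPs, against 100, 101 and 104 in Gprin3 inputs. Its groups were well separated, and the log2 fold change was 1.17 ± 0.14 (SE; adjusted p = 0.000105 with edgeR). Cox5a, a nuclear subunit on the matrix side of COX, had 546 and 896 CPM in Gprin3 IPs, against 316, 341 and 398 in Gprin3 inputs. Its log2 fold change was 1.25 ± 0.18, and the 2 IPs differed from each other by more than the inputs did. Complex V members were higher at the catalytic head (Atp5a1 0.62 ± 0.12, Atp5b 0.71 ± 0.13, log2 ± SE). They were also higher in the rotating central stalk (Atp5c1 0.95 ± 0.14, Atp5d 1.16 ± 0.17) and in the ring (Atp5g1 1.24 ± 0.22, Atp5g3 1.0 ± 0.15). Atp5g2, the least abundant ring gene, overlapped between IP and input, at 0.24 ± 0.29 (adjusted p = 0.558 with edgeR). Sdhb and Sdhc, the iron-sulphur subunit and a membrane anchor of complex II, were higher by 0.87 ± 0.16 and 0.76 ± 0.14. Sdha had the smallest fold of complex II, 0.40 ± 0.13, with 497 and 484 CPM in Gprin3 IPs, against 394, 434 and 467 in Gprin3 inputs. The Sdha call was lost when only genes with a mean of at least 5 CPM were tested (adjusted p = 0.0671 with edgeR).

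The disease set gave the same comparison in other mice, WT Gprin3 IP against WT M1 input, with no library in common. Of 47 genes tested, 24 were higher and 2 lower, with a median log2 fold change of 0.36, while 40.4% of all 14930 genes tested were called, 20.6% higher and 19.8% lower. All 24 genes higher here were also among the 40 higher in the baseline set (60.0% of the 40). They include Uqcrc1 (1.14 ± 0.10), with 173 and 166 CPM in WT Gprin3 IPs and a lowest, median and highest value of 70.6, 87.9 and 89.4 in the 5 WT M1 inputs. Cox5a was again higher (0.94 ± 0.08), with 567 and 613 CPM in WT Gprin3 IPs, against 314 to 374 in WT M1 inputs. The 16 genes higher only in the baseline list included Atp5b, Atp5c1, Cycs, Cox4i1, Cox7a2, Sdhb and Sdhd, and the difference between the sets was not tested. Atp5b, for example, had 1625 and 1372 CPM in WT Gprin3 IPs, below the 1657 to 2254 of WT M1 inputs, at a log2 fold change of -0.23 ± 0.10 that missed the threshold (adjusted p = 0.083 with edgeR). Cox7a2l was lower in WT Gprin3 IPs than in WT M1 inputs, by a log2 fold change of -0.59 ± 0.13, and stood at -0.29 ± 0.15 (adjusted p = 0.173 with edgeR) in the baseline set.

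**Figure D2:**
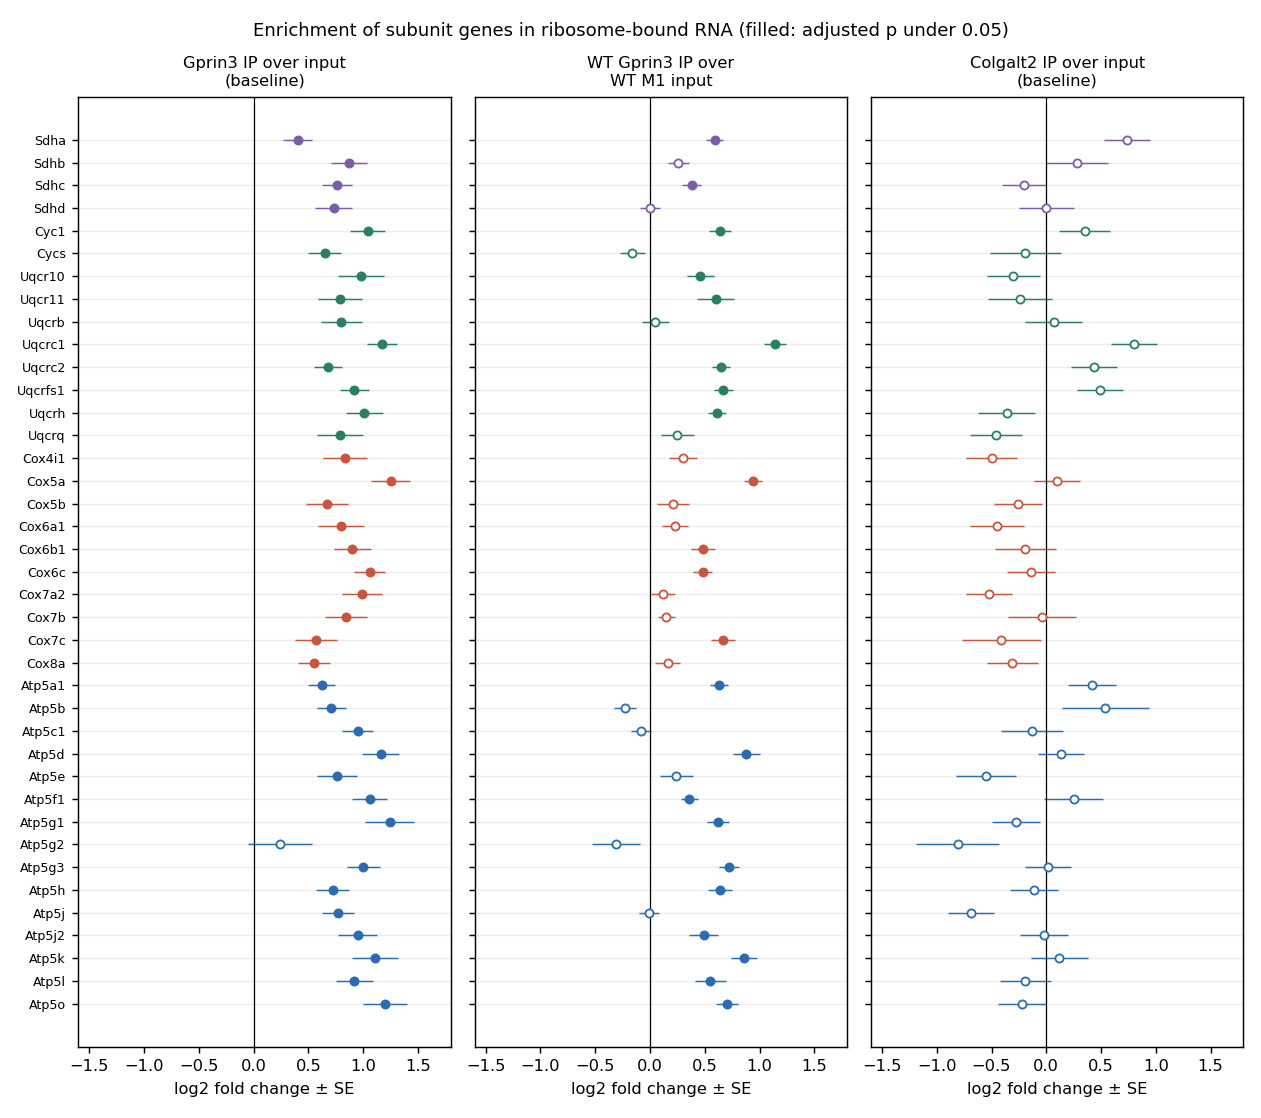
Log2 fold change with its SE (horizontal axis) for Gprin3 IP over input, WT Gprin3 IP over WT M1 input and Colgalt2 IP over input, with called genes filled. Drawn are the 38 subunits found in most tissues and cytochrome c, ordered by complex (vertical axis). Most of these genes lie right of 0 in both Gprin3 panels, and the Colgalt2 panel scatters around 0. The Colgalt2 median over all genes tested, including those not drawn, was -0.17.

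Markers of other cells moved with these comparisons, and their part in them was not tested. Of 14 astrocyte markers, 13 were lower and 1 higher in baseline Gprin3 IP, and their summed level was 1015 to 1028 CPM in Gprin3 IPs, against 3094 to 3574 in Gprin3 inputs. All 14 oligodendrocyte markers were lower, with sums of 179 to 202 CPM in Gprin3 IPs and 1072 to 1416 in Gprin3 inputs. Microglia (11 of 14 lower) and vascular markers (8 of 15 lower, 1 higher) moved the same way. Of 13 interneuron markers, 7 were higher and 2 lower, with sums of 2705 to 2800 CPM in Gprin3 IPs and 1618 to 1782 in Gprin3 inputs. Of 7 markers of projection neurons of layers 2 to 4, 3 were lower. Leaving out each library in turn gave 35 to 41 called genes in the baseline comparison and 25 to 28 in the WT comparison of the disease set.

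The tissue isoforms of complex IV did not move together: Cox6a2 and Cox6b2 were lower in baseline Gprin3 IP than in input, and Cox7a1 was higher. Cox6a2, the heart and muscle form of subunit 6a that is also known from parvalbumin interneurons, had 0.514 and 0.886 CPM in Gprin3 IPs, against 6.99, 13.5 and 12.2 in Gprin3 inputs. Its log2 fold change was -3.74 ± 0.48 (adjusted p = 0.000176 with edgeR). In the disease set it had 1.61 and 1.13 CPM in WT Gprin3 IPs, against 8.73 to 12.1 in WT M1 inputs (log2 fold change -2.70 ± 0.31). Cox6a2 was also the only gene of the 48 called in baseline Colgalt2 IP over input, with 2.49 and 1.36 CPM in Colgalt2 IPs and 11.3 and 16 in Colgalt2 inputs (-2.60 ± 0.43, adjusted p = 0.0394 with edgeR). That call was lost without either Colgalt2 input (adjusted p = 0.404 and 0.226 with edgeR) and with the length trend removed (0.064). The ubiquitous partner Cox6a1 supplied 98.0% to 99.9% of the summed CPM per kb of the pair in every group. Cox6a2 made up 0.0648% of the pair in Gprin3 IPs and 1.5% in Gprin3 inputs. Pvalb, the parvalbumin gene, ran opposite to Cox6a2 in the Gprin3 line, at 162 and 214 CPM in Gprin3 IPs, against 67.6 to 102 in Gprin3 inputs. In the Colgalt2 line it ran the same way as Cox6a2, at 45.0 and 58.8 CPM in Colgalt2 IPs, against 88.7 and 109 in Colgalt2 inputs. That difference did not pass the test (-0.67 ± 0.22, adjusted p = 0.122 with edgeR).

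Cox7a1, the muscle form of subunit 7a, was higher in Gprin3 IPs. It had 3.99 and 8.68 CPM in baseline Gprin3 IPs, against 2.03, 1.54 and 1.56 in Gprin3 inputs, a log2 fold change of 2.09 ± 0.47 (adjusted p = 0.00587 with edgeR). In the disease set it had 8.53 and 4.17 CPM in WT Gprin3 IPs, against 0.785 to 2.59 in WT M1 inputs, a log2 fold change of 2.24 ± 0.43 (adjusted p = 0.000374 with edgeR). SOD1*G93A Gprin3 IPs had 13.2, 7.60 and 11.9 CPM. Cox7a1 supplied 2.49% of the summed CPM per kb of Cox7a1 and Cox7a2 in baseline Gprin3 IPs and 1.25% in Gprin3 inputs, so Cox7a2, the liver form expressed in most tissues, made up the bulk of the pair. Cox6b2, a testis form, had 0 and 0.118 CPM in Gprin3 IPs, against 0.625, 2.04 and 1.261 in Gprin3 inputs, and its call (adjusted p = 0.0281 with edgeR) was lost without any of the 3 inputs (0.0519 to 0.108). Cox4i2, known from lung and pericytes, had at most 0.354 CPM in Gprin3 IPs and 0.547 to 0.944 in Gprin3 inputs, and did not pass the test (adjusted p = 0.295 with edgeR).

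**Figure D3:**
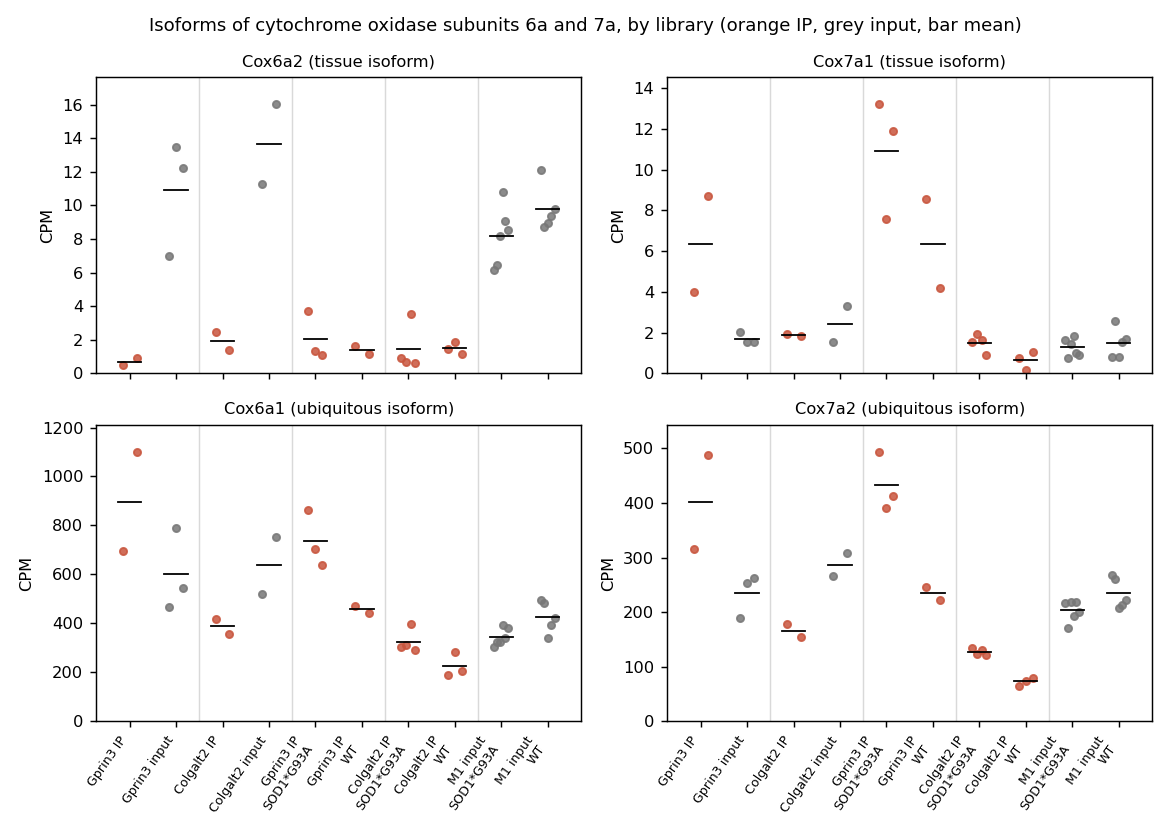
CPM of Cox6a2, Cox6a1, Cox7a1 and Cox7a2 (vertical axes, each from 0) in every library of the 10 groups (horizontal axis), with orange points for IPs, grey points for inputs and bars for group means. Cox6a2 is low in IPs of both lines, and Cox7a1 is high in Gprin3 IPs, with 13.2 CPM in its highest library.

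In Colgalt2 neurons the ubiquitous subunits showed no shift from the tissue that passed the test. In baseline Colgalt2 IP over Colgalt2 input, none of 46 genes tested was higher and 1, Cox6a2, was lower, with a median of -0.17, while 2.65% of all 14240 genes tested were called, 1.75% higher and 0.906% lower. Among genes with unadjusted support, Uqcrc1 had 179 and 130 CPM in Colgalt2 IPs, against 106 and 107 in Colgalt2 inputs (0.80 ± 0.21, adjusted p = 0.078 with edgeR). Sdha had 592 and 518 CPM in Colgalt2 IPs, against 407 and 395 in Colgalt2 inputs (0.74 ± 0.21, adjusted p = 0.0867 with edgeR). The groups did not overlap for either gene. This comparison depended on single libraries: 24 genes were called without Colgalt2 IP replicate 1 (8 higher, 16 lower), 14 without IP replicate 2, and none by edgeR without input replicate 1 or 2 (2 genes and 1 at an unadjusted p under 0.05). In the authors' deposited table, 2 of the 48 were higher and 4 lower at an adjusted p under 0.05. Of 14 astrocyte markers none was called, with sums of 1944 to 2818 CPM in Colgalt2 IPs and 2915 to 3776 in Colgalt2 inputs, and of 14 oligodendrocyte markers 4 were lower. Of 15 vascular markers 2 were higher, with sums of 121 to 294 CPM in Colgalt2 IPs and 103 to 136 in Colgalt2 inputs. Among interneuron markers, only Npy (-2.56, lower) and Reln (1.51, higher) passed the test.

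The enrichment over input was larger in Gprin3 than in Colgalt2 neurons for genes of all 4 complexes. The difference in log2 enrichment, Gprin3 minus Colgalt2, was positive and passed the test for 20 of 47 genes and was negative past the test for none, with a median of 1.05, while 8.69% of all 15045 genes tested were called, 3.23% positive and 5.46% negative. The 20 were 1 gene of complex II, 3 of complex III, 7 of complex IV and 9 of complex V. Atp5j, coupling factor 6 of the ATP synthase stalk, differed by 1.54 ± 0.26 (adjusted p = 0.00362 with edgeR), and Cox7a2 by 1.58 ± 0.29 (0.00652). Cox7a2 had 315 and 488 CPM in Gprin3 IPs against 189, 253 and 263 in Gprin3 inputs, while it had 178 and 154 in Colgalt2 IPs against 265 and 309 in Colgalt2 inputs. It was therefore above input in Gprin3 IPs and below input in Colgalt2 IPs in every library. Sdhc differed by 1.04 ± 0.23, while Sdha did not pass the test, at -0.25 ± 0.22 (adjusted p = 0.5 with edgeR). Atp5j and Cox7a2 were the 2 genes called whichever library was left out. The count was 4 without Gprin3 IP replicate 2, 5 without Gprin3 input replicate 1, 6 without Gprin3 input replicate 3, 12 without Colgalt2 input replicate 1 and 2 without Colgalt2 input replicate 2.

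Set directly against each other, 17 of 44 genes were higher and none lower in baseline Gprin3 IP than in baseline Colgalt2 IP (median 0.87), while 6.67% of all 13604 genes tested were called, 2.22% higher and 4.45% lower. This comparison shares its IP libraries with the difference in enrichment. Cox4i1, the main form of COX subunit 4, had 820 and 1168 CPM in Gprin3 IPs, against 436 and 325 in Colgalt2 IPs (1.39 ± 0.27, adjusted p = 0.00899 with edgeR). Cox6c had 476 and 539 CPM in Gprin3 IPs, against 206 and 208 in Colgalt2 IPs (1.29 ± 0.25, adjusted p = 0.00866 with edgeR). No gene was called by edgeR without Gprin3 IP replicate 1 or 2 (29 and 10 genes at an unadjusted p under 0.05), and 26 and 28 were called without Colgalt2 IP replicates 1 and 2.

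In the disease set, 25 of 45 genes were higher and 1 lower in WT Gprin3 IP than in WT Colgalt2 IP (median 0.95), while 13.0% of all 14813 genes tested were called, 6.9% higher and 6.1% lower. Here the line and the tissue dissected cannot be told apart. Atp5e, the epsilon subunit of the ATP synthase, had 206 and 180 CPM in WT Gprin3 IPs, against 33.6, 34.6 and 33.9 in WT Colgalt2 IPs (2.49 ± 0.18, adjusted p = 5.59e-05 with edgeR). Cox5a, at 567 and 613 CPM in WT Gprin3 IPs and 115, 154 and 120 in WT Colgalt2 IPs, was higher by 2.17 ± 0.19. The gene that was lower was Atp5b, with 1625 and 1372 CPM in WT Gprin3 IPs, against 2261, 2435 and 2401 in WT Colgalt2 IPs (-0.68 ± 0.19, adjusted p = 0.0375 with edgeR). Atp5b took 12.1% ± 0.821 of the counts of the 48 genes in WT Gprin3 IPs (SD, n = 2) and 30.8% ± 0.772 in WT Colgalt2 IPs (n = 3). Cyc1, the haem subunit cytochrome c1 of complex III, did not follow Cox5a, with 175 and 145 CPM in WT Gprin3 IPs and 180, 185 and 207 in WT Colgalt2 IPs (-0.28 ± 0.19, adjusted p = 0.368 with edgeR). Of the 17 genes higher in the baseline comparison of the lines, 13 were among the 25 here (76.5% of the 17 and 52.0% of the 25), among them Atp5e, Atp5j, Cox4i1, Cox5a, Cox6c, Cox7a2, Sdhc and Uqcrh. The sets share no library. Without WT Gprin3 IP replicate 1, 17 genes were called in the disease set comparison.

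Transcript length moved with the baseline comparisons of the lines, and its part in them was tested only by removing the trend. The 48 genes have a median transcript length of 720.5 bases, against 2270 over all genes with a length. Across genes, which are not independent replicates, Spearman's correlation of the difference in enrichment with length was -0.33, and 1136 other genes of up to 1000 bases had a median of 0.63. Within the set, the 30 genes of up to 1000 bases had a median of 1.21 and the 17 longer ones 0.75. In WT Gprin3 IP over WT Colgalt2 IP the correlation over all genes was -0.07, other genes of up to 1000 bases had a median of 0.34, and the respiratory genes had 1.46 up to that length and 0.58 above it. With the length trend of each library removed, 3 genes were called in the difference in enrichment, 1 in Gprin3 over Colgalt2 IP, and 19 in the WT comparison of the lines. Gprin3 IP over input was little related to length in the baseline set (-0.13) and positively related to it in the disease set (0.20), and with the trend removed 42 and 37 genes were called.

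Markers of other cells moved with the comparisons of the lines as well, and their part in the results was not tested. In the difference in enrichment, 7 of 13 interneuron markers were positive past the test, and 9 of 15 vascular, 6 of 14 astrocyte, 4 of 14 microglia and 3 of 14 oligodendrocyte markers were negative. In baseline Gprin3 IP over Colgalt2 IP, 7 of 13 interneuron markers passed the test, each of them upward, with sums of 2705 to 2800 CPM in Gprin3 IPs and 1308 to 1945 in Colgalt2 IPs. Lower in Gprin3 IP were 10 of 15 vascular markers (sums of 40.2 to 55 CPM in Gprin3 IPs and 121 to 294 in Colgalt2 IPs), 5 of 14 astrocyte markers (1015 to 1028 and 1944 to 2818), 3 of 13 oligodendrocyte markers and 3 of 11 microglia markers. In WT Gprin3 IP over WT Colgalt2 IP, 9 of 13 interneuron markers were higher, with sums of 2117 to 2186 CPM in WT Gprin3 IPs and 1068 to 1185 in WT Colgalt2 IPs. Of the others there, 6 of 15 vascular markers were lower, 1 of 14 astrocyte markers was higher and 1 lower, and no oligodendrocyte or microglia marker was called. Of the layer 5b markers there, Fezf2 (-2.13), Vat1l (-1.74), Nefm (-0.89) and Colgalt2 (-3.88) were lower, and only Slco2a1 (2.43) was higher. In baseline Gprin3 IP over Colgalt2 IP, Gprin3 (1.39) and Slco2a1 (1.95) were higher and only Colgalt2 (-4.06) was lower. In the difference in enrichment only Gprin3 (1.65) was called.

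**Figure D4:**
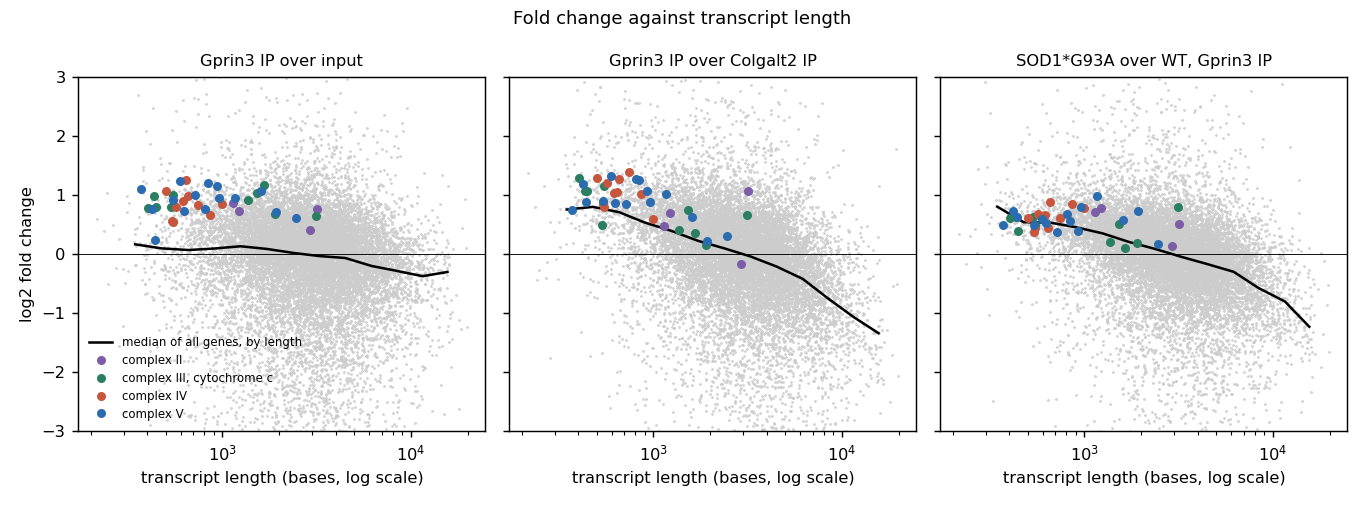
Log2 fold change (vertical axis, drawn from -3 to 3, with genes outside that range not drawn) against transcript length in bases (horizontal log axis). Genes tested are in grey, and the ubiquitous subunits of complexes II to V and cytochrome c are in colour, with a black line for the median in bins of at least 20 genes. Short transcripts lie above long ones where the correlation is negative, as in SOD1*G93A over WT Gprin3 IP, where it is -0.40.

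Genes of all 4 complexes were higher in ribosome-bound RNA of SOD1*G93A Gprin3 mice than in that of WT littermates, in a comparison where other short transcripts were higher too. Of 44 genes tested, 22 were higher and none lower in SOD1*G93A Gprin3 IP than in WT Gprin3 IP, with a median log2 fold change of 0.59 and positive values for 44 of 44, while 8.15% of all 13726 genes tested were called, 2.92% higher and 5.22% lower. The 975 other genes tested of up to 1000 bases had a median of 0.51, against 0.61 for the 27 respiratory genes of that length and 0.55 for the 17 longer ones. By complex, 3 of 4 genes of complex II were higher (median 0.61), 3 of 10 of complex III (0.50), 8 of 13 of complex IV (0.62) and 8 of 17 of complex V (0.58). Atp5c1, the rotating gamma subunit of ATP synthase, had 631, 636 and 608 CPM in SOD1*G93A Gprin3 IPs, against 353 and 276 in WT Gprin3 IPs. The groups were far apart, and the log2 fold change was 0.99 ± 0.13 (adjusted p = 0.00173 with edgeR). Atp5b had 2433, 2555 and 2464 CPM in SOD1*G93A Gprin3 IPs, against 1625 and 1372 in WT Gprin3 IPs (0.72 ± 0.10). Atp5a1, the partner of Atp5b in the catalytic head, did not pass the test, at 0.17 ± 0.10 (adjusted p = 0.343 with edgeR).

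Cycs, cytochrome c, had 203, 247 and 214 CPM in SOD1*G93A Gprin3 IPs, against 143 and 110 in WT Gprin3 IPs, a log2 fold change of 0.80 ± 0.15 (adjusted p = 0.0107 with edgeR). Cox7a2 had 493.3, 391 and 413 CPM in SOD1*G93A Gprin3 IPs, against 246 and 223 in WT Gprin3 IPs, a log2 fold change of 0.88 ± 0.15 (adjusted p = 0.00576 with edgeR). Both genes had every SOD1*G93A library above every WT library. Sdhd and Sdhb of complex II were higher by 0.77 ± 0.12 and 0.71 ± 0.14, while Sdha, the subunit that binds succinate, was at 0.14 ± 0.11 (adjusted p = 0.493 with edgeR). Uqcrc1, the gene of complex III with the largest enrichment over baseline input, was at 0.10 ± 0.14 (adjusted p = 0.746 with edgeR) and overlapped between genotypes. Cox7a1 was at 0.78 ± 0.47 (adjusted p = 0.364 with edgeR), with a larger SE than the ubiquitous subunits.

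Other values moved with genotype in these IPs, and their part in the result was not tested. Summed astrocyte markers were at 888 to 913 CPM in SOD1*G93A Gprin3 IPs, against 1815 to 2645 in WT Gprin3 IPs, and 8 of 14 were lower. Summed oligodendrocyte markers were at 153 to 162 CPM in SOD1*G93A Gprin3 IPs, against 522 to 702 in WT Gprin3 IPs, and 8 of 14 were lower. Also lower were 4 of 7 markers of layers 2 to 4, 2 of 13 microglia markers and 1 of 11 vascular markers, while 5.22% of all genes tested were called lower. Among interneuron and layer 5b markers only Gad2 (0.50) and Ldb2 (0.52) passed the test, both upward, while 2.92% of all genes tested were called higher. Without WT Gprin3 IP replicate 1 the count of called genes was 5, and without replicate 2 it was 1, Atp5c1 among them in each case. With the length trend removed it was 4. The baseline Gprin3 IPs, with wildtype genotype and the astrocyte and oligodendrocyte sums given above (1015 to 1028 and 179 to 202 CPM), were put in place of the WT littermates in an alternative chosen after seeing the data. Against them 0 of 44 genes were called by edgeR (7 at an unadjusted p under 0.05), with a median of 0.06 and positive values for 26, while 65 of 13519 genes were called in all. Genotype and set of mice cannot be told apart in this alternative, so it does not decide what the comparison with littermates reflects. Atp5c1 had 488 and 636 CPM and Atp5b 2585 and 2902 CPM in those baseline IPs, overlapping or above the SOD1*G93A values given above.

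In Colgalt2 IPs no gene of the 48 passed the test between genotypes, and 39 of 45 fold changes were positive. In SOD1*G93A over WT Colgalt2 IP, 0 of 45 genes and 0.0% of all 14785 genes tested were called by edgeR after Benjamini-Hochberg adjustment. At an unadjusted p under 0.05 there were 28 of the 45 and 1073 of all genes. The median was 0.50. Atp5e had 73.4, 78.6, 73.4 and 53.6 CPM in SOD1*G93A Colgalt2 IPs, against 33.6, 34.6 and 33.9 in WT Colgalt2 IPs (1.03 ± 0.18), and Atp5l, a membrane subunit of the synthase, was at 1.02 ± 0.20, both with an adjusted p of 0.234 with edgeR. The genotypes did not overlap for Atp5e. DESeq2 called 13 of the 45 higher, and the authors' deposited table has 17 higher and none lower. The headers of these count tables carry R1 for some libraries and R2 for others. With this tag as a covariate 0 were called, and among R2 libraries, an alternative chosen after seeing the data, 0 were called, with 29 at an unadjusted p under 0.05 and a median of 0.59. The R1 libraries were 1 per genotype, which allows no test. Other genes of up to 1000 bases had a median of 0.37 here.

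In whole M1 tissue few of these genes differed with genotype. Of 46 genes tested, 1 was higher and 2 lower in SOD1*G93A M1 input than in WT M1 input, with a median of -0.08, while 3.33% of all 14324 genes tested were called, 2.13% higher and 1.2% lower. Cox8a, the ubiquitous form of COX subunit 8, had a lowest, median and highest level of 218, 253 and 268 CPM in the 6 SOD1*G93A inputs, against 296, 311 and 370 in the 5 WT inputs. The genotypes did not overlap, and its log2 fold change of -0.36 ± 0.07 (adjusted p = 0.00406 with edgeR) was called whichever library was left out. Atp5g1 was lower, at -0.34 ± 0.09 (adjusted p = 0.0411 with edgeR), and Atp5a1 higher, at 0.24 ± 0.06 (0.0186), each with overlap between genotypes. The 29 genes of up to 1000 bases had a median of -0.16 and the 17 longer ones 0.08, and other genes of up to 1000 bases had -0.07. With the length trend removed the Atp5g1 call was lost, and the calls of Cox8a and Atp5a1 were kept. Only Cox8a was called without WT input replicate 5 or without SOD1*G93A input replicate 4, and 5 genes were called without SOD1*G93A input replicate 5. DESeq2 called 7, and the authors' deposited table has none.

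**Figure D5:**
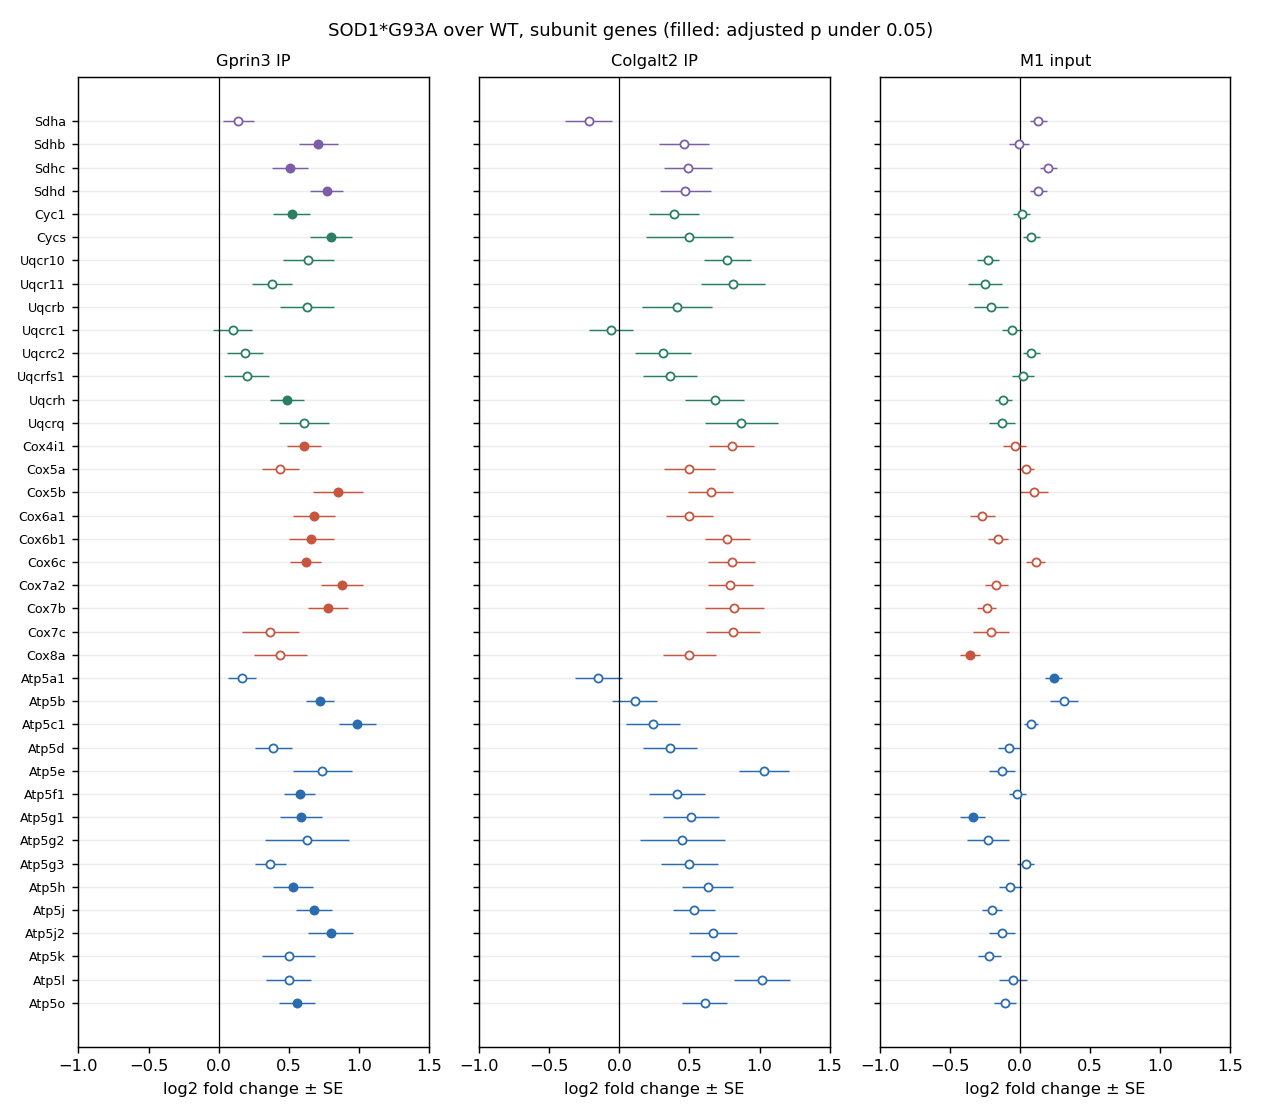
Log2 fold change with its SE (horizontal axis) for SOD1*G93A over WT in Gprin3 IP, Colgalt2 IP and M1 input, with called genes filled. Drawn are the 38 subunits found in most tissues and cytochrome c, ordered by complex (vertical axis). Over all genes tested, including those not drawn, values were positive for 44 of 44 in Gprin3 IP and 39 of 45 in Colgalt2 IP. The median over all genes tested in M1 input was -0.08.

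The genotype effect in Gprin3 IP was tested against those in the other materials. Against M1 input, the effect was larger in Gprin3 IP for 30 of 47 genes and smaller for none, with a median difference of 0.64, while 18.2% of all 15495 genes tested were called, 6.78% larger and 11.4% smaller. Atp5c1 differed by 0.89 ± 0.11 (adjusted p = 3.59e-06 with edgeR), Cox7a2 by 1.04 ± 0.16 and Cox7b, another small COX subunit, by 1.0 ± 0.15. Other genes of up to 1000 bases had a median difference of 0.52, against 0.74 for the 30 respiratory genes of that length. The count was 17 without WT Gprin3 IP replicate 2 and 9 with the length trend removed, and astrocyte (12 of 14) and oligodendrocyte (12 of 14) markers had smaller effects in the IP. Against Colgalt2 IP, 0 of 45 genes differed by edgeR or by DESeq2, with 3 at an unadjusted p under 0.05 and a median difference of 0.11, while 0.0775% of all 15476 genes tested were called. The smallest p-values were those of Atp5b (0.64 ± 0.22, adjusted p = 0.325 with edgeR) and Atp5c1 (0.77 ± 0.26, 0.329). These comparisons share the Gprin3 IP libraries with the genotype comparison above. A genotype effect that passes in Gprin3 IPs and not in Colgalt2 IPs is therefore not shown to differ between the lines.

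Other mitochondrial genes were counted in the same fits, from lists drawn up by function. The shares of all genes called were those given above for each comparison, 29.2% in Gprin3 IP over input and 8.15% in SOD1*G93A over WT Gprin3 IP. Of 36 nuclear subunits of complex I, which feeds electrons from NADH into the chain, 33 were higher and none lower in baseline Gprin3 IP over input (median 0.91), 24 were higher in WT Gprin3 IP over WT M1 input (0.44) and none was called in Colgalt2 IP over input. In SOD1*G93A over WT, 16 of the 36 were higher in Gprin3 IP (0.57), none was called in Colgalt2 IP (0.58) and none in M1 input (-0.09). Enzymes of the citric acid cycle were also enriched in Gprin3 IP over input, with 14 of 17 higher and 2 lower (0.74). With genotype, 2 of the 17 were higher in SOD1*G93A than in WT Gprin3 IP (0.13) and none was lower. Between the lines, none of the 17 was called in baseline Gprin3 IP over Colgalt2 IP (-0.02), and in Colgalt2 IP over input 2 were higher and none lower (0.51).

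Of 35 assembly factors of complexes II to V measured, 14 were higher and 1 lower in baseline Gprin3 IP over input (median 0.37), and 2 were higher in SOD1*G93A over WT Gprin3 IP (0.38). Of 13 other genes of the synthase and of mitochondrial membranes (carriers, channels, prohibitins and import proteins), 8 were higher in Gprin3 IP over input and 3 in SOD1*G93A over WT Gprin3 IP, and none was lower in either. Of 12 regulators of mitochondrial biogenesis, 2 were higher and 1 lower in Gprin3 IP over input, and none was called in SOD1*G93A over WT Gprin3 IP, so the first count is near the 29.2% of all genes called. Ppargc1a, the coactivator PGC-1alpha, had 377 ± 29.2 CPM in SOD1*G93A Gprin3 IPs (SD, n = 3), against 287 ± 23.4 in WT Gprin3 IPs (n = 2), and did not pass the test (adjusted p = 0.0907 with edgeR). Summed assembly factor levels were 1718 to 1876 CPM in SOD1*G93A Gprin3 IPs, against 1363 to 1398 in WT Gprin3 IPs, without overlap. The 2 of 35 assembly factors called there are near the 8.15% of all genes called.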

How the data were processed

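The authors deposited whole-number read counts per gene, in tables for each set of libraries, and tables of their own comparisons with log2 fold changes and adjusted p-values. Per the submitters' processing notes the tools were Subread, featureCounts and DESeq2 (1.26.0) with build mm10, and per the labels' protocols 15 ng of RNA was amplified with the NuGEN Ovation RNA-Seq System V2 before TruSeq library preparation. Amplification and the size of captured RNA can change counts with transcript length, and whether counting used strand is not given in the sources used here. Levels here are CPM over the library total, or CPM per kb of a GENCODE M21 transcript. Per-library values in the authors' comparison files (36 columns) were not used. Features with no symbol (9 of 24100, at most 0.0201% of counts) were left out.

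Each comparison was fitted with edgeR (4.0.16, R 4.3.3) on the groups concerned: filterByExpr, TMM factors and the robust quasi-likelihood F test, two-sided, with Benjamini-Hochberg adjustment over all genes tested and a threshold of 0.05. DESeq2 (1.42.0), another normalization, other filters, removal of length or GC trends, a replicate block and leaving out each library were tried as alternatives, and the fit was tested on simulated counts. Named genes were a fixed list of 21 core and isoform genes, plus, per comparison, the 2 smallest p-values of each complex and each call against the majority, with other genes named where a count or the text required it. The members and all gene lists were chosen with earlier results of these data known.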

Additional observations from a re-analysis of the deposited data

Results flagged for a closer look

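Single libraries stood far from the rest of their group for 10 of the 143 pairs of gene and group examined, and chance sets apart about 1 in 20 groups by this measure, the gap to the nearest library over the group's whole range. In SOD1*G93A Colgalt2 IPs (n = 4), replicate 4 held 3 of them. Its Atp5b was 3130 CPM where the others had 2350 to 2380, its Cycs was 129 CPM where the others had 84.8 to 91.4, and its Uqcrq, a small subunit of complex III, was 42.5 CPM where the others had 75.2 to 77.7. Replicate 3 of that group had 3.51 CPM of Cox6a2 where the others had 0.591 to 0.907, and 0.209 CPM of Cox4i2 where the others were at 0. Replicate 2 had 184 CPM of Atp5f1, a subunit of the ATP synthase stalk, where the others had 211 to 213. Replicate 1 had 233 CPM of Uqcrc2, a core protein of complex III, where the others had 209 to 210. In SOD1*G93A M1 inputs (n = 6), replicate 2 had 2980 CPM of Atp5b where the others had 1980 to 2300, and 188 CPM of Cox7b where the others had 248 to 281. Replicate 3 of those inputs had 215 CPM of Uqcrc2 where the others had 193 to 196.

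A further group of results differed between contrasts by a test of the difference itself, edgeR's quasi-likelihood test of an interaction. The enrichment over input differed between Gprin3 and Colgalt2 for 20 genes. Among those named, the log2 difference, Gprin3 minus Colgalt2, was 1.04 for Sdhc in complex II. It was 1.44 for Uqcrh and 1.36 for Uqcr10 in complex III. In complex IV it was 1.58 for Cox7a2, 1.29 for Cox6c, 1.41 for Cox4i1, 1.23 for Cox5a, 1.32 for Cox6a1 and 0.94 for Cox8a. In complex V it was 1.54 for Atp5j, 1.5 for Atp5o, 1.15 for Atp5c1, 1.59 for Atp5g1 and 1.05 for Atp5g3.

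The effect of SOD1*G93A differed between Gprin3 IP and M1 input for 30 genes. The log2 difference, Gprin3 IP minus M1 input, was 0.63 for Sdhd and 0.71 for Sdhb in complex II. It was 0.6 for Uqcrh, 0.5 for Cyc1 and 0.71 for Cycs, the genes of complex III and its carrier. In complex IV it was 1.0 for Cox7b, 1.04 for Cox7a2, 0.64 for Cox4i1, 0.39 for Cox5a, 0.94 for Cox6a1 and 0.79 for Cox8a. In complex V it was 0.89 for Atp5c1, 0.87 for Atp5j and 0.92 for Atp5g1. Summed astrocyte and oligodendrocyte markers moved with genotype in the same IPs, and their part in these differences was not tested.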

How the results depend on the processing

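Counts of called genes below are from edgeR unless DESeq2 is named, and the cause of each change was not tested. For Colgalt2 IP over input, where 1 gene was called, the count was 3 with no filter on low counts, 5 with DESeq2, 0 with the length trend removed (13 at an unadjusted p under 0.05) and 2 with the replicate block. With the length trend removed the count was 3 in place of 20 for the difference in enrichment, 1 in place of 17 for Gprin3 over Colgalt2 IP, 4 in place of 22 for SOD1*G93A over WT Gprin3 IP and 9 in place of 30 for its difference from M1 input. With DESeq2 it was 13 in place of 0 for SOD1*G93A over WT Colgalt2 IP and 7 in place of 3 for M1 input. With baseline Gprin3 IPs in place of WT IPs, chosen after seeing the data, it was 0, and the log2 fold changes of Sdhb (-0.07), Atp5b (-0.2), Cyc1 (-0.1), Cox4i1 (-0.09), Cox6a1 (-0.34) and Atp5g1 (-0.27) turned negative. Genotype and set of mice cannot be told apart there. With the length trend removed, Uqcrh in SOD1*G93A over WT Gprin3 IP (-0.06) and Cox5a in the difference from M1 input (-0.1) turned negative. Summed CPM of the genes with TMM factors was 11200 in Colgalt2 IP (10400 over library totals), 10900 in Colgalt2 input (12100), 10100 in SOD1*G93A Colgalt2 IP (9440) and 8150 in WT Colgalt2 IP (7690), which turns the order of baseline Colgalt2 IP and input. Leaving out each library in turn gave 35 to 41 called genes for Gprin3 IP over input, 0 to 24 for Colgalt2 IP over input, 2 to 26 for the difference in enrichment, 0 to 28 for Gprin3 over Colgalt2 IP, 25 to 28 for WT Gprin3 IP over M1 input, 17 to 30 for WT Gprin3 over WT Colgalt2 IP, 1 to 25 for SOD1*G93A over WT Gprin3 IP, 1 to 5 for M1 input, 17 to 33 for the difference from M1 input, and 0 in every case for SOD1*G93A over WT Colgalt2 IP and its difference from Gprin3 IP. Where this left 1 library in a group, that library was assumed to vary like the others. Replicate numbers did not pair the libraries: deviations of libraries with the same number correlated at -0.166 to 0.181. With the replicate block the counts were 41, 2, 21, 18, 21, 30, 27, 0, 4, 0 and 31 for Gprin3 IP over input, Colgalt2 IP over input, the difference in enrichment, Gprin3 over Colgalt2 IP, WT Gprin3 IP over M1 input, WT Gprin3 over WT Colgalt2 IP, SOD1*G93A over WT in Gprin3 IP, Colgalt2 IP and M1 input, and the differences of the Gprin3 IP effect from Colgalt2 IP and from M1 input. Of the values of single named genes that were called, under all alternatives, 1298 kept their direction and side of the threshold, 191 lost the call and the 8 above changed sign. These totals pool comparisons whose calls held to unequal degrees, as the counts above show. They do not describe the comparisons of the lines or of genotype taken singly. Several groups hold 2 libraries, which limits precision, and depth limits Cox8b, Cox4i2, Cox6b2 and Cox7b2, which had libraries with no count.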
